A study of Homo sapiens with 6 samples.

Results

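The 30 genes described here cover the making of cholesterol, the handling of cholesterol taken up from outside, and its export and storage. They were chosen by gene symbol, according to their role, from the 23459 genes of the count table: 18 enzymes of sterol synthesis in pathway order, 5 genes that control the SREBP transcription factors, 3 genes of intracellular transport, and 4 genes of efflux, receptor turnover and storage. Their mRNA was measured in MCF10A cells, an untransformed human mammary epithelial cell line, and all 6 libraries are marked WT in their description. The cells were transfected with 20 nM siRNA. The 3 siCtrl libraries received a non-targeting control and the 3 siYAP/TAZ libraries received siRNA against YAP and TAZ, the transcriptional coactivators at the end of the Hippo pathway, of which TAZ is encoded by WWTR1. The comparison asks how the mRNA of these genes differed once YAP and TAZ were depleted. The siRNA sequences against YAP and TAZ and the time between transfection and harvest are not given in the sources used here.

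Cells build cholesterol from acetyl-CoA. The mevalonate steps make farnesyl pyrophosphate, a pair of these molecules is joined to squalene, squalene is closed to lanosterol, the first sterol, and a chain of demethylations, reductions and isomerizations turns lanosterol into cholesterol. Most of the enzymes are transcribed under the control of SREBP-2, the product of SREBF2, whereas the products of SREBF1 act more on fatty acid synthesis. Both precursors sit in the endoplasmic reticulum bound to the escort protein SCAP. When sterols are plentiful, the INSIG proteins hold SCAP back, and when sterols are scarce, SCAP carries SREBP to the Golgi, where proteases free the active factor. INSIG1 is itself an SREBP target. Sterol excess acts in the other direction through the LXR nuclear receptors, which induce the exporters ABCA1 and ABCG1 and the ubiquitin ligase MYLIP. SREBP binds DNA weakly on its own and is known to work with the factor NF-Y, which binds CCAAT boxes, while YAP and TAZ reach DNA through TEAD factors.

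The 250 bases before the RefSeq start of 5 of the genes are shown because these genes were lower together in the counts below, 4 by the test and SREBF2 with the replicate block, and hold the CCAAT letters that NF-Y is known for. SREBF2 alone of the 5 also holds a match to TCACNCCAC, the only form of the SREBP sterol element that was searched. Other forms of the element were not searched in any promoter. IDI1, which fell as well, held neither CCAAT nor TCACNCCAC. The 5 genes were picked for both traits, so they do not show how often the traits go together. EBP, which passed with the block, held 3 CCAAT boxes and the TEAD letters GGAATG but is not shown. The stretches are written 5′ to 3′ along the gene, from assembly GRCh38.p14, and capitals mark CCAAT or its reverse complement and, in SREBF2, the sterol element.
HMGCS1 (chr5:43313413-43313662, minus strand): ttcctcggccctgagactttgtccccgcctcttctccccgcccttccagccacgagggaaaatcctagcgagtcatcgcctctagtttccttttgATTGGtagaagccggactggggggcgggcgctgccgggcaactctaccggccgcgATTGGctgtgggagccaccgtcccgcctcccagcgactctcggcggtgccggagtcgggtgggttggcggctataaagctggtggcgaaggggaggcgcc
FDPS (chr1:155308616-155308865, plus strand): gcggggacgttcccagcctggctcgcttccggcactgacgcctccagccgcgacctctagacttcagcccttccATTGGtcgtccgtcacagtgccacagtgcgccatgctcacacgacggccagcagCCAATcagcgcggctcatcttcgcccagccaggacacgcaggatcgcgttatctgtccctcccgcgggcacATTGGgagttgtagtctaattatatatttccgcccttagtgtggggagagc
MSMO1 (chr4:165327419-165327668, plus strand): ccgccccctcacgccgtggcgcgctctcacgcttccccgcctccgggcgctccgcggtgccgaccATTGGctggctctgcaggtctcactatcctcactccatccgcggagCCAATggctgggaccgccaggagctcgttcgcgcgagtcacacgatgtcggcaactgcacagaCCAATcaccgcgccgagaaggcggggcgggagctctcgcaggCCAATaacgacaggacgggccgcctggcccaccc
INSIG1 (chr7:155297628-155297877, plus strand): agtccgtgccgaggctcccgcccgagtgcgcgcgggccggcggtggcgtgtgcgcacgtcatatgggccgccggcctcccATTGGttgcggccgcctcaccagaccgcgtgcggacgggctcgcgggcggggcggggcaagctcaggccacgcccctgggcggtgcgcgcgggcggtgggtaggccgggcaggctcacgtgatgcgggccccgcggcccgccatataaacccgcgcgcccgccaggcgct
SREBF2 (chr22:41832855-41833104, plus strand): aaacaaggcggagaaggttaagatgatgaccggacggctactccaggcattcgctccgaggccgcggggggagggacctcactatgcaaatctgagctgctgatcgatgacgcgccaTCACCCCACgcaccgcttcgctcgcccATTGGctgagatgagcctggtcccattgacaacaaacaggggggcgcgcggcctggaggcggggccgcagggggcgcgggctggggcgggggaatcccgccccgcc
HMGCS1 holds 2 CCAAT boxes, which begin 155 and 100 bases before the start. FDPS holds 3 and MSMO1 holds 4, and INSIG1 has a single one at 170 bases. In SREBF2 a match to the sterol element TCACNCCAC begins 133 bases before the start, and a CCAAT box begins at 106 bases. Over the windows from 250 bases before to 50 after the start, searched on both strands, CCAAT was found in 18 of the 26 members with an entry (69.2%) and in 12 of 15 enzymes (80.0%), beside 35.7% of all 27305 promoters and 37.1% of the 10034 promoters of tested genes. Of the 5 members with an entry that fell by edgeR, 4 (80.0%) held CCAAT, the same share as among the enzymes. MVK and NSDHL had 5 matches each. Those of NSDHL that begin 113 and 110 bases before the start lie on opposite strands and share bases. MYLIP, NPC2 and SOAT1 held boxes too, but none of these members, MVK and NSDHL included, passed in either fit. CYP51A1, which passed with the block, held 0. A link between the motif and the fall was not tested. TCACNCCAC was found in 1 of 26 members (3.85%), beside 1.15% of all promoters. The TEAD letters GGAATG were in 5 of 26 (19.2%), beside 14.0% of all and 10.6% of tested genes, namely in EBP, HSD17B7, NPC2, PMVK and STARD4. The first promoter listed for each gene was used, no matches overlap each other in the stretches printed, and ACAT2, FDFT1, SQLE and ABCG1 had no entry.

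Library totals ranged from 3175149 to 4317286 counts. The labels disagree for 2 libraries: by title and genotype siCtrl replicate 2 is a siYAP/TAZ library, and siYAP/TAZ replicate 2 is a control. Titles and descriptions also differ in the replicate numbers of several libraries, among them siCtrl replicate 3, which is replicate 2 by title. Groups and replicate numbers here, and so the replicate block, follow the description, which is also the column name. YAP1 had 189, 204 and 210 CPM (counts per library total adjusted with TMM factors) in siCtrl replicates 1, 2 and 3 and 116.5, 118 and 112 in siYAP/TAZ, and WWTR1 had 109, 109 and 102 against 70.5, 67.1 and 59.8, so both targets followed the description in every library. On the first principal component of all tested genes (48.4% of the variance), siCtrl replicate 2 lay at 7.15, the other siCtrl libraries at -42.6 and -34.9, and the siYAP/TAZ libraries between 9.77 and 33.7. Counts of calls are therefore also given without siCtrl replicate 2. All 6 mammary epithelial markers (KRT5, KRT14, KRT17, TP63, CDH1, ITGA6) were detected, with a summed level of 1446 to 1834 CPM in siCtrl against 1239 to 1404 in siYAP/TAZ. Of these 0 passed edgeR's test, and with the replicate block KRT5 was lower and TP63 higher.

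Of the 17 sterol synthesis enzymes that could be tested, 5 fell after depletion of YAP and TAZ, beside 1.22% of all tested genes. These were HMGCS1, IDI1, FDPS, FDFT1 and MSMO1. Of the 17, 16 had negative log2 fold changes, beside a median of -0.00093 over all tested genes. The 18 enzymes together reached 1640, 1723 and 2170 CPM in siCtrl against 1142, 1156 and 1146 in siYAP/TAZ, a mean of 1844 ± 285 against 1148 ± 7.27 (SD, n = 3), or 62.3% of control. The siYAP/TAZ libraries were nearly level with each other, siCtrl replicate 3 was the highest, and the groups did not overlap. In bulk RNA, fewer cells that express a gene and less RNA of it per cell cannot be told apart. The 12 proliferation genes, such as CENPF, a kinetochore protein, were also lower in sum, with 2463, 2087 and 2461 CPM in siCtrl against 1473, 990 and 1058 in siYAP/TAZ (50.2% of control). Of these, 6 of 12 fell, or 12 of 12 with the replicate block and also without siCtrl replicate 2. Among all tested genes 1.22%, 5.44% and 6.22% were lower in those fits. The part of the proliferation genes in the sterol result was not tested.

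**Figure D1:**
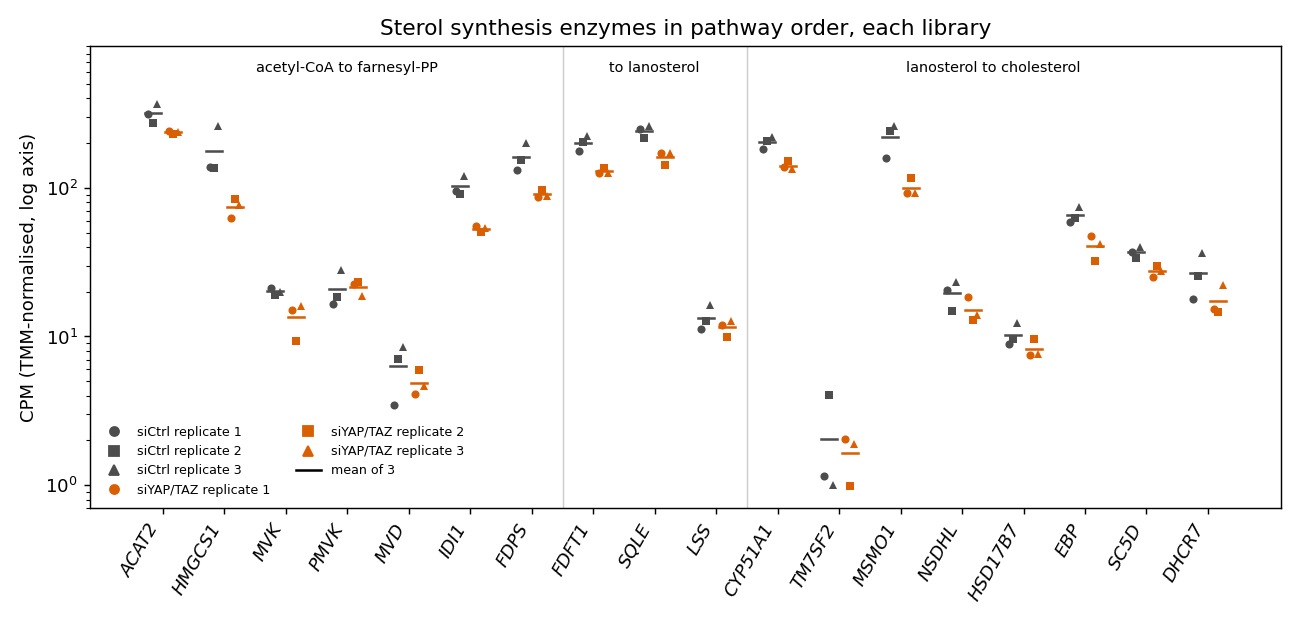
CPM (log axis) of the 18 sterol synthesis enzymes in pathway order, with a point for each library (gray for siCtrl, orange for siYAP/TAZ, shapes for replicate numbers) and a bar for the mean of 3. The 10 enzymes with higher levels, from ACAT2 to SC5D, and MVK show the siYAP/TAZ points below all siCtrl points, whereas the points of PMVK, MVD, LSS, TM7SF2, NSDHL, HSD17B7 and DHCR7 overlap.

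By the quasi-likelihood test of edgeR, with p-values adjusted over 12510 genes, 6 of the 28 members that passed the low-count filter fell (HMGCS1, IDI1, FDPS, FDFT1, MSMO1 and INSIG1) and 0 rose. Among all tested genes 1.22% fell and 0.743% rose. At an unadjusted p under 0.05, 14 members were lower and 1, SCAP, was higher, beside 9.27% and 8.4% of all tested genes. DESeq2 called 9 members lower and 0 higher, beside 2.47% and 1.88% of the 13301 genes to which it gave an adjusted p. The median log2 fold change (siYAP/TAZ over siCtrl) of the 28 members was -0.46, beside -0.00093 over all tested genes, and 22 of 28 were negative. All 3 siYAP/TAZ libraries lay below all siCtrl libraries for 14 of 28 members (11.1% of all tested genes) and above them for 2 of 28, SCAP and SOAT1 (11% of all tested genes). With the replicate number as a block, 11 members fell and 0 rose, among 5.44% and 4.66% of all tested genes, and the 5 that joined were ACAT2, SQLE, CYP51A1, EBP and SREBF2. Without siCtrl replicate 2, 10 fell and 0 rose, among 6.22% and 6.08% of 12836 tested genes, with SREBF2 short of the threshold (adjusted p of 0.0996).

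The number of members that passed depended on which libraries entered the fit. With siCtrl replicate 1 left out 4 passed (0.49% of all tested genes fell), and with siYAP/TAZ replicate 1 left out 1 passed, which was IDI1 (0.866% of all). By edgeR 0 passed when siCtrl replicate 3 was left out, with 11 lower at an unadjusted p under 0.05 (5.88% of all). In the same way 0 passed when replicate 2 or replicate 3 of siYAP/TAZ was left out, with 12 and 14 lower at that level (6.84% and 5.58% of all). The 6 genes kept a negative log2 fold change whichever library was left out, and their adjusted p-values reached 0.120 for IDI1 and 0.232 for FDFT1. With the groups of the titles 0 members passed and 0 were lower at an unadjusted p under 0.05, and without both libraries of conflicting labels 9 passed (4.64% of all).

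**Figure D2:**
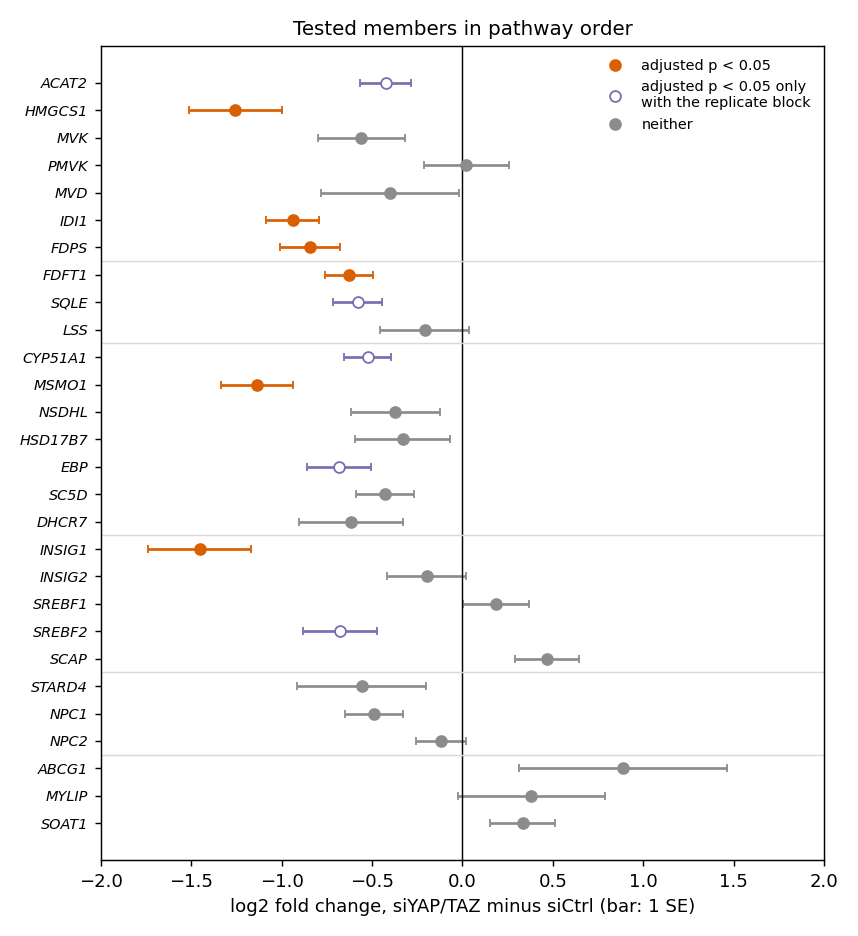
Log2 fold change (siYAP/TAZ over siCtrl, bars of 1 SE from edgeR) of the 28 tested members in pathway order, with lines between pathway steps. Filled orange points passed an adjusted p of 0.05 by edgeR on group alone, and open points passed with the replicate block but not in that fit. The 6 orange points run from -0.63 for FDFT1 to -1.45 for INSIG1.

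The mevalonate steps, from acetyl-CoA to farnesyl pyrophosphate, had 718, 696 and 1003 CPM summed over 7 enzymes in siCtrl against 488, 499 and 495 in siYAP/TAZ (61.3% of control). HMGCS1, IDI1 and FDPS fell, ACAT2 passed with the block, and MVK, PMVK and MVD did not pass. HMGCS1 makes HMG-CoA, the substrate of the rate-limiting reductase (Entrez 3157, GRCh37 chromosome 5, 43287572 to 43313614). It had 137, 135 and 260 CPM in siCtrl against 62.6, 84.6 and 76.4 in siYAP/TAZ. The groups were separate, and siCtrl replicate 3 was far above the other controls. HMGCS1 fell by 1.26 on the log2 scale (SE 0.26, adjusted p of 0.0422), and the log2 fold change without that library was -0.87 (adjusted p of 0.111).

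IDI1 interconverts the isoprene units of the pathway (Entrez 3422, chromosome 10, 1085092 to 1095059). It had 95.6, 91.0 and 120 CPM in siCtrl against 55.8, 50.6 and 53.3 in siYAP/TAZ, which is tight in the depleted cells and separate from every control. IDI1 fell by 0.94 on the log2 scale (SE 0.15) and had the smallest adjusted p of the 28 tested members, 0.0168. FDPS joins these units to farnesyl pyrophosphate, the branch point toward sterols, ubiquinone and protein prenylation (Entrez 2224, chromosome 1, 155278539 to 155290457). It had 132, 153 and 200 CPM against 86.6, 96.9 and 87.8, again without overlap, and fell by 0.84 on the log2 scale (SE 0.17, adjusted p of 0.0363). ACAT2, the cytosolic thiolase that opens the pathway, had 312, 271 and 367 CPM against 242, 228 and 238. These groups did not overlap either, but the shift was smaller at -0.43 (SE 0.14, adjusted p of 0.167, and 0.0469 with the replicate block).

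Reads of some of these genes are uncertain because each overlaps a gene on the opposite strand and use of strand in the counting is not stated. IDI2-AS1 had 0.824 to 0.943 counts per count of IDI1 over the 6 libraries, RUSC1-AS1 had 0.816 to 0.901 per count of FDPS, and TCP1 had 1.07 to 1.14 per count of ACAT2. These ratios stayed in a narrow range over both groups, whereas SOD2, which also overlaps ACAT2, had 2.28 to 22.0 counts per count of ACAT2. Exons of MVK, CYP51A1, SREBF1, STARD4 and NPC2 also overlap counted genes on the opposite strand (MMAB, AKAP9, RAI1, STARD4-AS1 and ISCA2), and their reads are uncertain in the same way. TM7SF2 and NPC2 overlap genes on their own strand (VPS51 and MIR4709), whose reads could not be told apart with strand either. MVK, PMVK and MVD, which phosphorylate and decarboxylate mevalonate, had control means of 6.36 to 21.0 CPM and log2 fold changes of -0.56, 0.02 and -0.40. MVK was separate between the groups, with 19.1 to 21.3 CPM in siCtrl against 9.26 to 16.0 in siYAP/TAZ, but did not pass (adjusted p of 0.271). PMVK and MVD overlapped.

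The steps from farnesyl pyrophosphate to lanosterol had 436, 430 and 498 CPM summed over FDFT1, SQLE and LSS in siCtrl against 309, 290 and 309 in siYAP/TAZ (66.5% of control). FDFT1, or squalene synthase, commits farnesyl pyrophosphate to sterols (Entrez 2222, chromosome 8, 11653082 to 11696904). It had 176, 202 and 222 CPM in siCtrl against 126, 137 and 126 in siYAP/TAZ, with the highest depleted library well below the lowest control. FDFT1 fell by 0.63 on the log2 scale (SE 0.13, adjusted p of 0.0485). SQLE, the squalene epoxidase and a second control point of the pathway, had 249, 216 and 259 CPM against 171, 143 and 171. The separation was of the same kind, and the log2 fold change of -0.58 (SE 0.14) had an adjusted p of 0.0668, or 0.00756 with the block. LSS, the cyclase that makes lanosterol, had 11.2 to 16.3 CPM against 9.92 to 12.8, which overlap (-0.21, adjusted p of 0.704).

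From lanosterol to cholesterol, 8 enzymes summed to 486, 596 and 669 CPM in siCtrl against 345, 368 and 342 in siYAP/TAZ (60.2% of control). MSMO1, which removes the C4 methyl groups (Entrez 6307, chromosome 4, 166248819 to 166264316), had 159, 240 and 262 CPM in siCtrl against 92.2, 117 and 92.5 in siYAP/TAZ. Every depleted library lay below the lowest control, siCtrl replicate 1, and MSMO1 fell by 1.14 on the log2 scale (SE 0.20, adjusted p of 0.0240). CYP51A1, the C14 demethylase, had 182, 206 and 220 CPM against 137, 151 and 134. EBP, the sterol isomerase, had 58.9, 62.6 and 74.4 CPM against 47.1, 32.4 and 41.9. Both were separate between the groups. By edgeR on group alone neither passed, but both passed with the block. CYP51A1 was at -0.53 (adjusted p of 0.0735, and 0.0175 with the block) and EBP at -0.69 (0.0851 and 0.0199). They also passed by DESeq2 (adjusted p of 0.0324 and 0.0449) and by edgeR without siCtrl replicate 2 (0.0316 and 0.0314).

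NSDHL, HSD17B7, SC5D and DHCR7, which act in C4 demethylation and in the last desaturation and reduction, had log2 fold changes of -0.62 to -0.33 and adjusted p-values of 0.215 to 0.554. SC5D alone was separate, with 33.6 to 40.0 CPM in siCtrl against 24.9 to 29.7 in siYAP/TAZ. TM7SF2, a C14 reductase, was too low to be tested, with 4, 13 and 4 counts in siCtrl against 9, 3 and 7 in siYAP/TAZ.

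How well an enzyme was measured went with its level. The 10 enzymes with a mean of 30 CPM or more over all libraries had log2 fold changes of -1.26 to -0.43 with SEs of 0.13 to 0.26. Of these 5 passed, and 9 with the block (1.22% and 5.44% of all tested genes fell in those fits). The 7 tested enzymes below that level had log2 fold changes of -0.62 to 0.02 with SEs of 0.24 to 0.38, and 0 passed with or without the block, so a fall of the same size would be harder to detect there. Between libraries of the same replicate number, 14, 15 and 17 of the 17 tested enzymes were lower in siYAP/TAZ for replicates 1, 2 and 3. The shares of all tested genes that were lower in these pairs were not determined, and no label states this pairing.

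**Figure D3:**
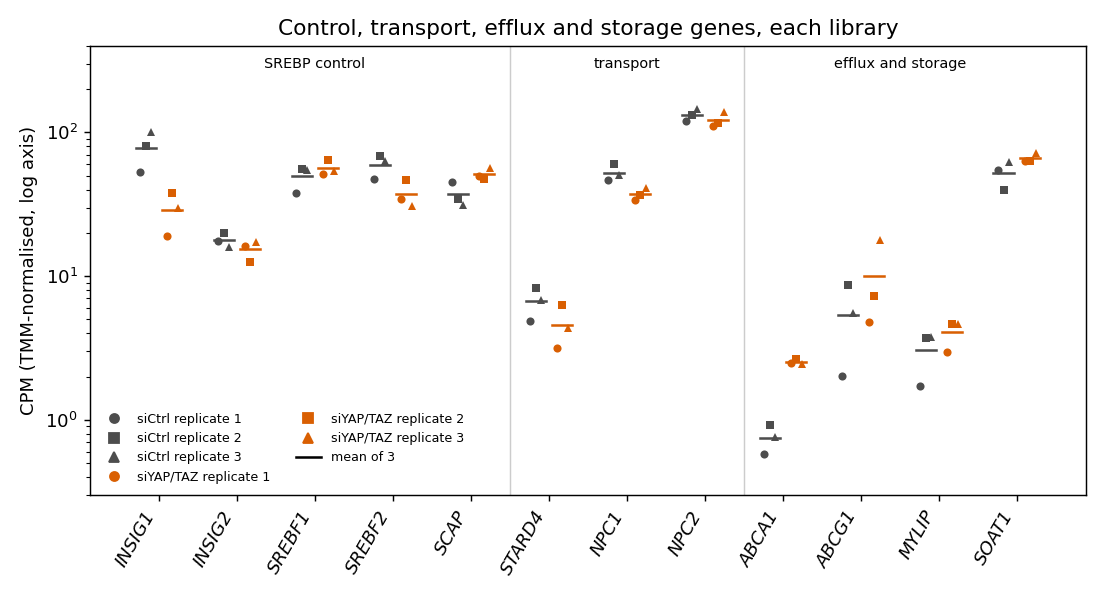
CPM (log axis) of the 12 genes of SREBP control, transport, efflux and storage, drawn as for the enzymes. INSIG1, SREBF2 and NPC1 lie lower in siYAP/TAZ, and SCAP, ABCA1 and SOAT1 lie higher, each without overlap, while the other 6 overlap.

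Among the genes that control SREBP, the members did not move as one. INSIG1, the sterol-dependent retention factor (Entrez 3638, chromosome 7, 155089486 to 155101945), had 53.4, 80.2 and 101 CPM in siCtrl against 19.0, 37.7 and 29.6 in siYAP/TAZ. The groups were separate although each spread widely, and siCtrl replicate 1 and siYAP/TAZ replicate 1 were the lowest of their groups. INSIG1 fell by 1.45 on the log2 scale (SE 0.29, adjusted p of 0.0354), the largest shift of the 28 tested members. Its paralog INSIG2, which is not known as an SREBP target in the same way, had 17.5, 20.1 and 15.8 CPM against 16.3, 12.6 and 17.4, which overlap (-0.20, adjusted p of 0.689).

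SREBF2, which encodes SREBP-2, had 47.1, 68.5 and 63.6 CPM in siCtrl against 34.7, 46.9 and 31.0 in siYAP/TAZ. The highest depleted library, replicate 2, was just under the lowest control. On the log2 scale the difference was -0.68 with an SE of 0.21 (adjusted p of 0.131, and 0.0224 with the block). SREBF1 had 38.2, 55.5 and 54.8 CPM against 51.7, 63.8 and 53.9, which overlap (0.19, adjusted p of 0.642). SCAP, the escort of both factors, had 45.4, 34.6 and 31.4 CPM in siCtrl against 49.9, 47.6 and 56.3 in siYAP/TAZ. It was higher in every depleted library, with a log2 fold change of 0.47 (SE 0.18) that did not pass (adjusted p of 0.215, and 0.0970 with the block).

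Ratios within a library do not depend on its scaling. SREBF2 over SREBF1 was 1.23, 1.23 and 1.16 in siCtrl against 0.671, 0.736 and 0.576 in siYAP/TAZ, a difference of -0.88 on the log2 scale. INSIG1 over INSIG2 was 3.05, 4.0 and 6.35 against 1.17, 3.00 and 1.70, a difference of -1.23, with the second library of siYAP/TAZ almost at the lowest control. Neither ratio overlapped between the groups. The two-sided exact permutation p was 0.1 for each of the 2 ratios, also after adjustment over both, which is the smallest that 3 against 3 libraries can give. Under the titles, replicates 2 change sides and both ratios overlap.

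**Figure D4:**
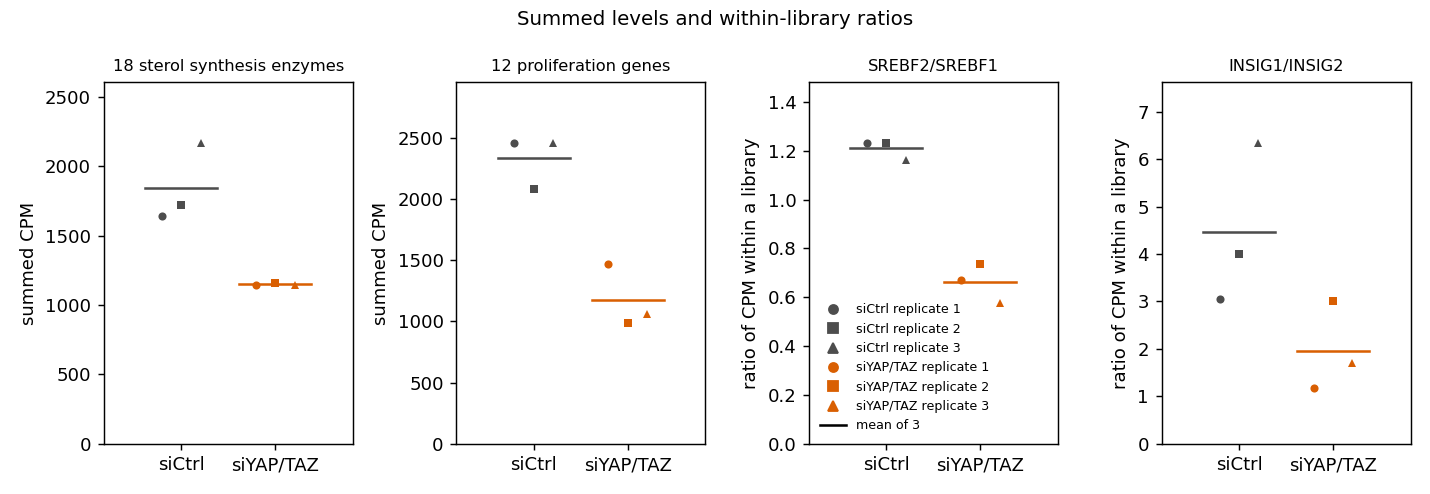
Summed CPM of the 18 enzymes and of the 12 proliferation genes, and the ratios SREBF2/SREBF1 and INSIG1/INSIG2 within each library, with a point for each library and a line for the mean of 3, on axes that start at 0. In all 4 panels the siYAP/TAZ points lie below the siCtrl points.

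The transport genes had 0 calls in either direction by edgeR (0 with DESeq2), and 1, NPC1, was lower at an unadjusted p under 0.05. NPC1, the membrane protein that lets cholesterol out of late endosomes and lysosomes, had 46.8, 60.2 and 50.5 CPM in siCtrl against 34.0, 36.7 and 41.3 in siYAP/TAZ. The groups were separate, and the difference on the log2 scale was -0.49 with an SE of 0.16 (adjusted p of 0.158). RMC1, on the opposite strand, had 0.776 to 0.954 counts per count of NPC1, so the reads of both are uncertain. NPC2, the soluble partner that hands cholesterol to NPC1, had 120, 133 and 145 CPM against 112, 117 and 139, which overlap (-0.12, adjusted p of 0.705). STARD4, a cytosolic sterol carrier, had 4.88, 8.33 and 6.78 CPM against 3.17, 6.28 and 4.35, also with overlap (-0.56, adjusted p of 0.456).

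On the side of efflux and storage, none of the 3 tested genes passed in edgeR or DESeq2, 0 had an unadjusted p under 0.05, and all 3 had positive log2 fold changes. ABCA1, which exports cholesterol to lipid-poor apolipoproteins, was likewise below the low-count filter, with 2, 3 and 3 counts in siCtrl against 11, 8 and 9 in siYAP/TAZ. The control libraries were at or below 3 counts, the level that a count of 0 still allows. Its summed counts of 8 and 28 give a rate ratio of 3.37, with an exact 95% interval of 1.50 to 8.56 that covers counting error only. ABCG1, the exporter to mature lipoproteins, had 2.01, 8.64 and 5.53 CPM against 4.76, 7.27 and 18.0. The spread within each group was wide, and the log2 fold change of 0.89 with an SE of 0.58 (adjusted p of 0.459) ranged from 0.15 to 1.37 when single libraries were left out.

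MYLIP, the ligase that sends lipoprotein receptors to degradation, had 1.72, 3.70 and 3.77 CPM in siCtrl against 2.95, 4.63 and 4.62 in siYAP/TAZ, which overlap (0.38, adjusted p of 0.677). SOAT1, which esterifies cholesterol for storage, had 54.9, 39.8 and 62.3 CPM against 63.0, 63.5 and 71.8. These groups were separate by a narrow margin, with siCtrl replicate 2 the lowest. The difference on the log2 scale was 0.33 with an SE of 0.18 (adjusted p of 0.366), and it was 0.18 without that library.

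Genes next to the pathway were read from lists of the same kind, and in each of the 6 lists 0 genes passed by edgeR in either direction. DESeq2 called 3, ACLY, SCD and FADS1, all lower, beside 2.47% of the genes to which it gave an adjusted p. The counts at an unadjusted p under 0.05 that follow stand beside the 9.27% of all tested genes that were lower and the 8.4% that were higher at that level. Calls with the block stand beside 5.44% lower and 4.66% higher. Of the 3 genes of acetyl-CoA supply, 1 was lower at an unadjusted p under 0.05 and with the block: ACLY, which makes cytosolic acetyl-CoA, with 140, 113 and 171 CPM against 84.5, 97.8 and 92.2 (-0.63, adjusted p of 0.0876, and 0.0226 with the block). The 10 genes of the isoprenoid branches had a median of 0.06 and the 9 genes of SREBP processing and sterol-dependent degradation had one of 0.07, with 0 of either list at an unadjusted p under 0.05. The latter summed to 415 to 421 CPM in siCtrl against 427 to 433 in siYAP/TAZ.

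Of the 12 other sterol handling genes, 2 were lower at an unadjusted p under 0.05 and with the block, TMEM97 (-0.53) and LBR (-0.54), a C14 sterol reductase of the inner nuclear membrane. The list had a median of -0.16. Of the 7 tested genes of LXR signaling and oxysterols, 1 was higher at an unadjusted p under 0.05 and with the block, RXRA, the partner of LXR (0.59, adjusted p of 0.0282 with the block), and the median was 0.10. Counts of 1 or 2 genes do not set either list apart from all tested genes. Of the 8 fatty acid genes known as SREBP targets, 7 were negative with a median of -0.50, and 4 were lower at an unadjusted p under 0.05. SCD, FADS1 and FADS2, which desaturate fatty acids, passed with the block (-0.87, -0.88 and -1.06), beside 5.44% of all tested genes lower in that fit. The summed level of the 8 genes was 73.6% of control. The genes named from these lists were picked for passing with the block, after their values were seen.

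Markers of other cell types were at or near 0. Of 4 fibroblast markers, COL1A2 and COL3A1 were at 0 in every library and the sums were 1.15 to 3.27 CPM in siCtrl against 0.992 to 3.81 in siYAP/TAZ. Of 4 immune markers CD79A was at 0 throughout, with sums of 1.44 to 4.94 and 1.36 to 3.97 CPM, and the 4 adipocyte and hepatocyte markers summed to at most 1.85 CPM. The 3 endothelial markers summed to 2.01 to 3.39 CPM in siCtrl against 4.76 to 11.2 in siYAP/TAZ, where PECAM1 was higher (log2 fold change 2.10, adjusted p of 0.0785, and 0.0245 with the block) while VWF and CDH5 had at most 6 counts in a library.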

How the data were processed

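The 6 libraries were made with the QuantSeq 3′ mRNA-Seq FWD kit, which reads the 3′ end of polyadenylated RNA, so counts do not scale with transcript length. The authors deposited raw counts per Entrez gene, with no normalization. The submitters' processing notes name cutadapt 4.2, Bowtie2 2.3.5.1 and hg19, and the study's methods name counting of overlapping reads in R. Gene annotation and use of strand are not given in the sources used here. The table held 23459 genes, 0 unnamed rows and 0 unused columns, and 23308 IDs (99.7% of counts) matched RefSeq symbols of GRCh38.p14. Gene coordinates are from GENCODE 44 lifted to GRCh37, and promoters are from RefSeq on GRCh38.p14.

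Groups and replicate numbers came from the description. The methods state biological replicates for RNA-Seq in general, but nothing says that these libraries came from separate cultures, so p-values measure the spread between these libraries. Replicates of a group differed by more than sampling noise (chi-square per degree of freedom of 5.37 to 17.4). By this measure siCtrl replicate 2 differed less from siYAP/TAZ replicates 2 and 3 (8.57 and 12.2) than from siCtrl replicates 1 and 3 (17.4 and 14.1). Its value against siYAP/TAZ replicate 1 was 16.6. The labels of siCtrl replicate 2 and of siYAP/TAZ replicate 2 conflict. A count of 0 allows up to 3 counts, or 0.695 to 0.945 CPM, which covers counting error only.

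Differences were tested with edgeR 4.0.16 (R 4.3.3): default low-count filter, TMM factors, quasi-likelihood F test on group alone, and adjustment by Benjamini-Hochberg over 12510 genes (99.5% of counts), with a threshold of 0.05. Standard errors are the log2 fold change over the root of F. Errors of CPM are SDs. The code was tested on simulated data. Within-group deviations of log2 CPM were correlated over genes for libraries of the same number (r of 0.42, 0.35 and 0.13 for replicates 1, 2 and 3). Each r over 0.1 was taken to pair them. Libraries of different numbers had r of -0.36 to 0.045. Deviations from a group mean cancel out, so these values depend on each other. No label states that libraries of the same number were handled together. Blocked values are printed beside calls that they change, and also for SCAP, whose call they do not change. Alternatives were the replicate block, DESeq2 1.42.0, scaling by RLE or by library size, no filter on low counts, a minimum mean of 50 counts, robust dispersions, groups by title, leaving out both libraries with conflicting labels, and leaving out each library.

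Values in each library are given for members past the threshold in either fit and for tested members of the control, transport and efflux steps, and the others by counts and ranges. The members and lists were chosen with earlier results of these data known.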

Additional observations from a re-analysis of the deposited data

How the results depend on the processing

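edgeR without a block called 245 of all genes, and 6 members lower. DESeq2 called 578 genes, the fit without a low-count filter 556, the fit with the replicate block 1263, and the fit without both libraries of conflicting labels 1183. Leaving out single libraries gave 16 to 1579 genes and 0 to 10 members lower. With the replicate block, 11 members were lower, 5 more than without it, and the block changed no other member's call. With the groups of the titles, 0 genes and 0 members passed (464 genes at an unadjusted p under 0.05). No setting called a member higher. The cause of these moves was not tested.

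The direction turned only for members that did not pass. Under the titles these were PMVK (-0.18), INSIG2 (0.22), NPC1 (0.0084), NPC2 (0.0021) and SOAT1 (-0.046). Without both libraries of conflicting labels they were PMVK (-0.11) and INSIG2 (0.020), and PMVK ranged from -0.12 to 0.28 with single libraries left out. RLE scaling, library size alone and robust dispersion changed no call. A mean of at least 50 counts left 4 members lower, among 119 lower genes of 8913 tested. HMGCS1 (adjusted p of 0.0553) and FDFT1 (0.0537) no longer passed there. Depth limits the genes under 10 CPM, such as MVD, STARD4, ABCG1 and MYLIP.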
